A study of Mus musculus with 7 samples.

Results

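The iHep cells labelled 4α3 were set against the other iHep types, 4α1 and 4α2, gene by gene. iHep cells come from embryonic fibroblasts that were given transcription factors to bring them closer to hepatocytes. From knowledge of the study, these were Hnf4a with 1 of Foxa1, Foxa2 and Foxa3, but the sources used here do not say what the last digit of each label means. RNA of each type was hybridised to 1 Agilent 1-colour array, beside 3 arrays of mouse embryonic fibroblasts (MEF) prepared from embryos 13.5 days post coitum and 1 array of hepatocytes from adult liver. All cells had the C57BL/6 background, and the iHep cells were derived from MEFs. Ages of the adult mice, culture times and the number of cultures behind each iHep array are not given in the sources used here. A gene counted as apart in 4α3 when its level there was at least 4-fold above, or at least 4-fold below, both other types. Of 17352 autosomal genes and unnamed array features that were well above background on at least 1 iHep array, 384 met this rule, 156 of them higher in 4α3 (0.899%) and 228 lower (1.31%). With 1 array per type the differences have no replicate check, and no p-value is given for any single gene. With background corrected by normexp instead, 79 genes were higher and 73 lower, so 52.0% of the genes apart were higher rather than 40.6%. Normexp adds an offset of 50 to every signal, which by construction narrows differences between dim signals, and 64 of the 98 genes apart that the naming rule picks stayed past 4-fold with it. A limma fit that takes its spread from 2 MEF samples called 0 genes in either direction at an adjusted p of 0.05, while 146 of the higher and 205 of the lower genes had an unadjusted p under 0.05 against both types. Since these genes were chosen for large differences in the same values, nothing is read from that count.

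Hepatocytes make most of the plasma proteins, among them albumin, transthyretin, fibrinogen and the alpha-1 antitrypsin proteins, and carry the cytochrome P450 enzymes that oxidise drugs and steroids. Hnf4a is a nuclear receptor that sustains many of these genes. It acts in a network with the forkhead factors Foxa1 to Foxa3, with HNF1 factors and with the cut homeobox factors Onecut1 (also called HNF6) and Onecut2. Fibroblasts instead make fibrillar collagens and other matrix proteins.

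A level below is the background-corrected log2 signal with its array's 75th percentile taken off, so a level of 0 is brighter than 3 in 4 probes. A signal not well above background was raised to the lowest level that was well above background on its array, which lay at -5.88, -6.12 and -6.16 for 4α1, 4α2 and 4α3. A fold against such a signal is a lower bound and is written "at least". The share of probes well above background was 61.0% in 4α1, 63.6% in 4α2 and 62.4% in 4α3, and the 75th percentile of signal ran from 763 to 902 on these arrays. The 3 iHep arrays and MEF 1 were on the same slide, MEF 2 and MEF 3 on another, and the hepatocyte array on yet another. The spread between MEF 2 and MEF 3 was 0.505 to 0.948 times what repeated spots predict, below the sampling noise, so they were averaged and counted as 1 sample.

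Type 4α3 lay farther from each other type than those lay from each other. Against 4α1, 293 of 16833 genes were at least 4-fold higher in 4α3 (1.74%) and 449 lower (2.67%). Against 4α2, 268 of 17122 genes were higher (1.57%) and 607 lower (3.55%). Between 4α1 and 4α2, 448 of 16814 genes were at least 4-fold apart in either direction (2.66%), beside 742 (4.41%) and 875 (5.11%) for the pairs with 4α3. MEF 1 against MEF 2, which were on different slides, gave 315 of 17952 genes (1.75%). The labels do not say whether these MEF arrays came from separate cultures. The near-identical MEF 2 and MEF 3 still gave 153 of 18004 (0.85%), with a median level of -3.50 on the brighter side, and this fell to 31 of 17087 genes (0.181%) when both arrays had to be well above background. By the same measure 516 of 15286 genes (3.38%) were apart between 4α3 and 4α1 and 643 of 15599 (4.12%) between 4α3 and 4α2. Between 4α1 and 4α2 it was 280 of 15522 (1.80%), and between MEF 1 and MEF 2 164 of 15455 (1.06%). The rule that picked 156 and 228 genes in 4α3 picked 123 higher and 41 lower in 4α1, and 179 higher and 34 lower in 4α2. Genes lower than in both other types were thus most numerous in 4α3, and whether these counts differ beyond the spread of cultures cannot be tested with 1 array per type.

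**Figure D1:**
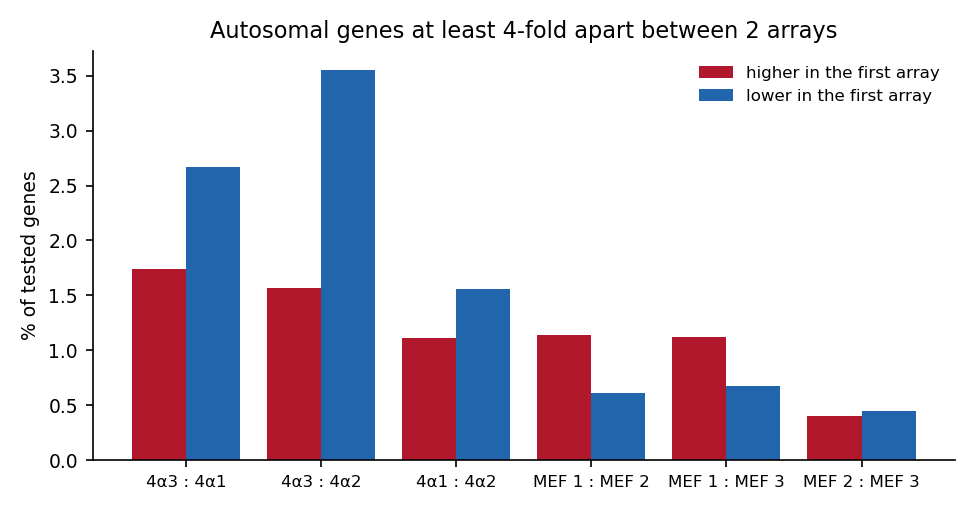
Share of tested autosomal genes (y axis, %) at least 4-fold higher (red) or lower (blue) in the first array of each pair than in the second. Both pairs with 4α3 show more lower genes (2.67% and 3.55%) than 4α1 against 4α2 (1.56%), and MEF 2 against MEF 3 shows the fewest in both directions (0.4% and 0.45%).

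Of the 156 higher genes, 99 were well above background on all 3 iHep arrays, and of the 228 lower genes 171 were. For the remaining 57 higher genes at least 1 of the other types was not well above background, and for the remaining 57 lower genes 4α3 was not. The smaller of a gene's 2 folds had a median of 6.20 among the higher genes and 5.80 among the lower, and exceeded 16-fold for 19 and 24 genes. Just inside the rule lay Fndc1 (2.01 and 3.06 on the log2 scale above 4α1 and 4α2) and Prr16 (at the threshold against 4α1 and -3.21 against 4α2). Just outside lay Zfp943 (1.99 and 2.06) and Ccl7 (-1.998 and -2.03). These 4 genes are named for their place at the threshold and were chosen after their values were seen.

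**Figure D2:**
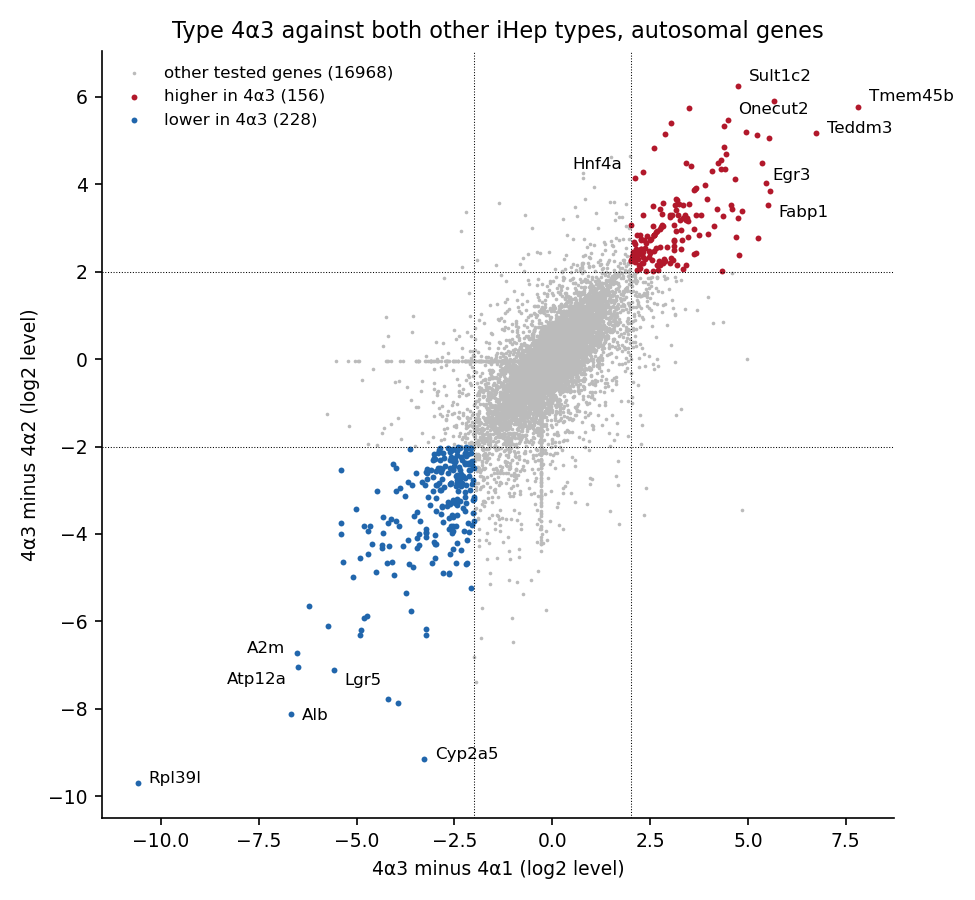
Each point is 1 autosomal gene, with its difference in log2 level between 4α3 and 4α1 (x axis) and between 4α3 and 4α2 (y axis). The 156 genes beyond both dotted lines at the upper right were at least 4-fold higher in 4α3, and the 228 at the lower left were lower, with Rpl39l and Alb among the farthest. Rows of points near 0 hold genes not well above background on either array of that pair.

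Albumin and other plasma proteins of the liver were lower in 4α3. Alb, serum albumin, had levels of 6.46 in 4α1, 7.92 in 4α2 and -0.21 in 4α3, against 9.95 in hepatocytes, where its spot was saturated, and -7.92, -8.32 and -7.63 on the MEF arrays, where it was not well above background. It was 101-fold lower in 4α3 than in 4α1 and 278-fold lower than in 4α2. The 4α3 cells thus still had an Alb signal far above that of MEFs. Serpina1b and Serpina1d, both alpha-1 antitrypsin genes, followed the same order. Serpina1b had levels of 2.33, 4.20 and -0.27 in 4α1, 4α2 and 4α3, which is 6.08-fold and 22.1-fold lower in 4α3. Serpina1d was 5.90-fold and 15.7-fold lower. The Serpina1 genes are near-identical copies, so their probes may share signal and the values cannot be told apart by copy. Ttr, the transthyretin carrier of thyroid hormone, was low in all 3 types (-1.09, -1.16 and -4.06) beside 5.68 in hepatocytes and was 7.82-fold and 7.41-fold lower in 4α3.

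Of 48 liver secreted proteins tested, 7 were at least 4-fold lower in 4α3 than in both other types and 0 were higher, beside 1.31% and 0.899% of all tested genes. With normexp 6 of the 7 stayed past 4-fold, Ttr being the exception (-1.78 from the nearer type). At any size, 30 of the 48 lay below both other types (62.5%) and 6 above (12.5%), beside 40.8% and 39.5% of all tested genes. The median difference was -0.41 from 4α1 and -1.997 from 4α2, beside -0.03 and 0.02 over all tested genes. The gap was wider against 4α2, where these genes were also brighter. The median level of the list was -2.07 in 4α1, 0.36 in 4α2 and -2.52 in 4α3. Apoa1, which forms high-density lipoprotein, did not meet the rule. Its levels were 7.34, 7.25 and 5.67, which is 3.20-fold and 2.996-fold lower in 4α3. Afp, the fetal counterpart of albumin, set 4α2 apart instead. Its levels were 0.70 in 4α1, 5.18 in 4α2 and 0.33 in 4α3.

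Of 28 clotting and complement genes tested, 4 were lower in 4α3 and 1 higher, beside 1.31% and 0.899% of all tested genes. At any size 17 lay below both other types (60.7%) and 6 above (21.4%), beside 40.8% and 39.5% of all tested genes. Fgg, the fibrinogen gamma chain, had levels of 0.68, 2.90 and -1.77 in 4α1, 4α2 and 4α3 against 9.42 in hepatocytes, and was 5.49-fold and 25.5-fold lower in 4α3. Factor V, F5, was 7.94-fold and 16.3-fold lower, and the complement protease gene C2 6.87-fold and 13.2-fold lower, with both of its probes apart the same way. Cfi, the protease that inactivates complement fragments, went the other way. Its levels were -3.94, -4.63 and -1.78, so it was 4.47-fold and 7.17-fold higher in 4α3, far below the 7.90 of hepatocytes. With normexp F5 (-1.75) and Cfi (1.35) were inside 4-fold of the nearer type. The list's median difference was -0.34 from 4α1 and -1.03 from 4α2.

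The cytochrome P450 and phase I enzymes had 7 of 46 tested genes lower in 4α3 and 0 higher, beside 1.31% and 0.899% of all tested genes. With normexp 2 of the 7 stayed past 4-fold. Cyp2f2, an enzyme of hepatocytes and airway club cells, had levels of -1.02, 2.90 and -4.95 in 4α1, 4α2 and 4α3 and 8.91 in hepatocytes. It was 15.2-fold and 232-fold lower in 4α3, where its level was also below all 3 MEF arrays (-1.09, -4.21 and -4.39). Cyp2a5, a coumarin hydroxylase, was not well above background in 4α3 and was lower there at least 9.63-fold and at least 562-fold. Cyp1a1, the classic target of the aryl hydrocarbon receptor, was likewise not well above background in 4α3, while its levels were -0.76 in 4α1 and -2.42 in 4α2. It was lower at least 42.2-fold and at least 13.4-fold. Cyp2b9 was 9.42-fold and 15.4-fold lower. The Cyp2a and Cyp2b genes have close copies with which a probe may share signal. With normexp Cyp1a1 (-1.61) and Cyp2a5 (-1.32) were inside 4-fold of the nearer type. Against 4α1 the median difference of the list was -0.10 and against 4α2 it was -1.39. At any size 22 of the 46 lay below both types (47.8%) and 8 above (17.4%), beside 40.8% and 39.5% of all tested genes. Among the 37 measured on all 3 iHep arrays 16 lay below both (43.2%) and 8 above (21.6%). Of all genes so measured 39.1% lay below both and 40.6% above.

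Beyond these lists, Gstm6, a glutathione transferase, was lower at least 7.31-fold and at least 8.02-fold, and Baat, which joins bile acids to glycine or taurine, was 6.05-fold and 14.2-fold lower. With normexp neither kept its 4-fold difference (-0.90 and -0.94 from the nearer type). These were the only lower genes among 30 phase II enzymes and 23 genes that make bile acids or transport them in liver. Of 43 genes of the urea cycle and amino acid metabolism, 40 of sterol and fatty acid synthesis and 35 of glucose and glycogen metabolism, 0 were apart in 4α3 in either direction. In lists of this size that lies near the background of 0.899% and 1.31%. In the first and second of these lists the nearest to the rule were Arg2, an arginase (lower at least 3.21-fold and at least 5.10-fold), and Gpam, which starts triglyceride synthesis (3.75-fold and 2.93-fold higher).

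Transcription factors of hepatocytes did not follow the plasma proteins. Of 36 tested, 3 were higher in 4α3 than in both other types (Onecut1, Onecut2 and, by its brightest probe, Hnf4a) and 0 were lower. Of all tested genes 0.899% were higher and 1.31% lower. At any size 15 of the 36 lay above both other types (41.7%) and 17 below (47.2%), beside 39.5% and 40.8% of all tested genes. The median difference of the list was -0.02 and -0.04. Onecut2 had levels of -2.53 in 4α1, -3.51 in 4α2 and 1.95 in 4α3, with 3.21 in hepatocytes and -4.62, -3.77 and -3.63 on the MEF arrays. It was 22.3-fold and 44.0-fold higher in 4α3, and all 3 of its probes gave 4α3 the highest level among the iHep types. Onecut1 had levels of -4.23, -5.17 and 0.16, with 2.24 in hepatocytes, and was 21.0-fold and 40.3-fold higher. On its other probe 4α3 was at background (-7.40) like 4α1 and 4α2, while hepatocytes had -0.27. By the brightest probe of each gene 4α3 lay nearer to the hepatocyte array than to the other iHep types, and by that other Onecut1 probe it did not.

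Hnf4a, itself one of the factors known to have been added, gave probes that disagree. Its brightest probe had levels of -0.55 in 4α1, -2.58 in 4α2 and 1.56 in 4α3, against 4.56 in hepatocytes, and was 4.32-fold and 17.7-fold higher in 4α3. A second probe had levels of -4.91, -5.37 and -3.15, again highest in 4α3 among the iHep types, but did not meet the rule. The remaining probe had -0.43, -0.24 and -2.09 and was lowest in 4α3. No direction is therefore stated for the gene as a whole, and RNA of an added Hnf4a cannot be told apart from the cells' own by these values. Foxa1 was well above background only in 4α1 among the iHep arrays (-3.06), as was Foxa2 (-0.94). Their levels in 4α3 were lower than in 4α1 at least 8.56-fold and at least 37.4-fold, and no fold is given against 4α2, where both arrays were at background. Foxa3 was not well above background on any iHep or MEF array and had a level of 1.95 in hepatocytes.

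Fabp1 and Sult1c2 were liver-expressed genes that were higher in 4α3. Fabp1, the fatty acid binding protein of liver and small intestine, was not well above background in 4α1, had a level of -3.89 in 4α2 and -0.36 in 4α3, and reached 9.36 in hepatocytes. It was higher in 4α3 than in 4α1 at least 45.9-fold and 11.6-fold higher than in 4α2, and was the only gene apart among 45 genes of fatty acid oxidation and ketogenesis. Sult1c2, a sulfotransferase, had levels of -4.21, -5.72 and 0.54 beside 1.295 in hepatocytes, and was 26.9-fold and 76.3-fold higher. The lower plasma proteins and P450 enzymes and the higher Fabp1, Sult1c2, Onecut1 and Onecut2 were therefore found in the same RNA.

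**Figure D3:**
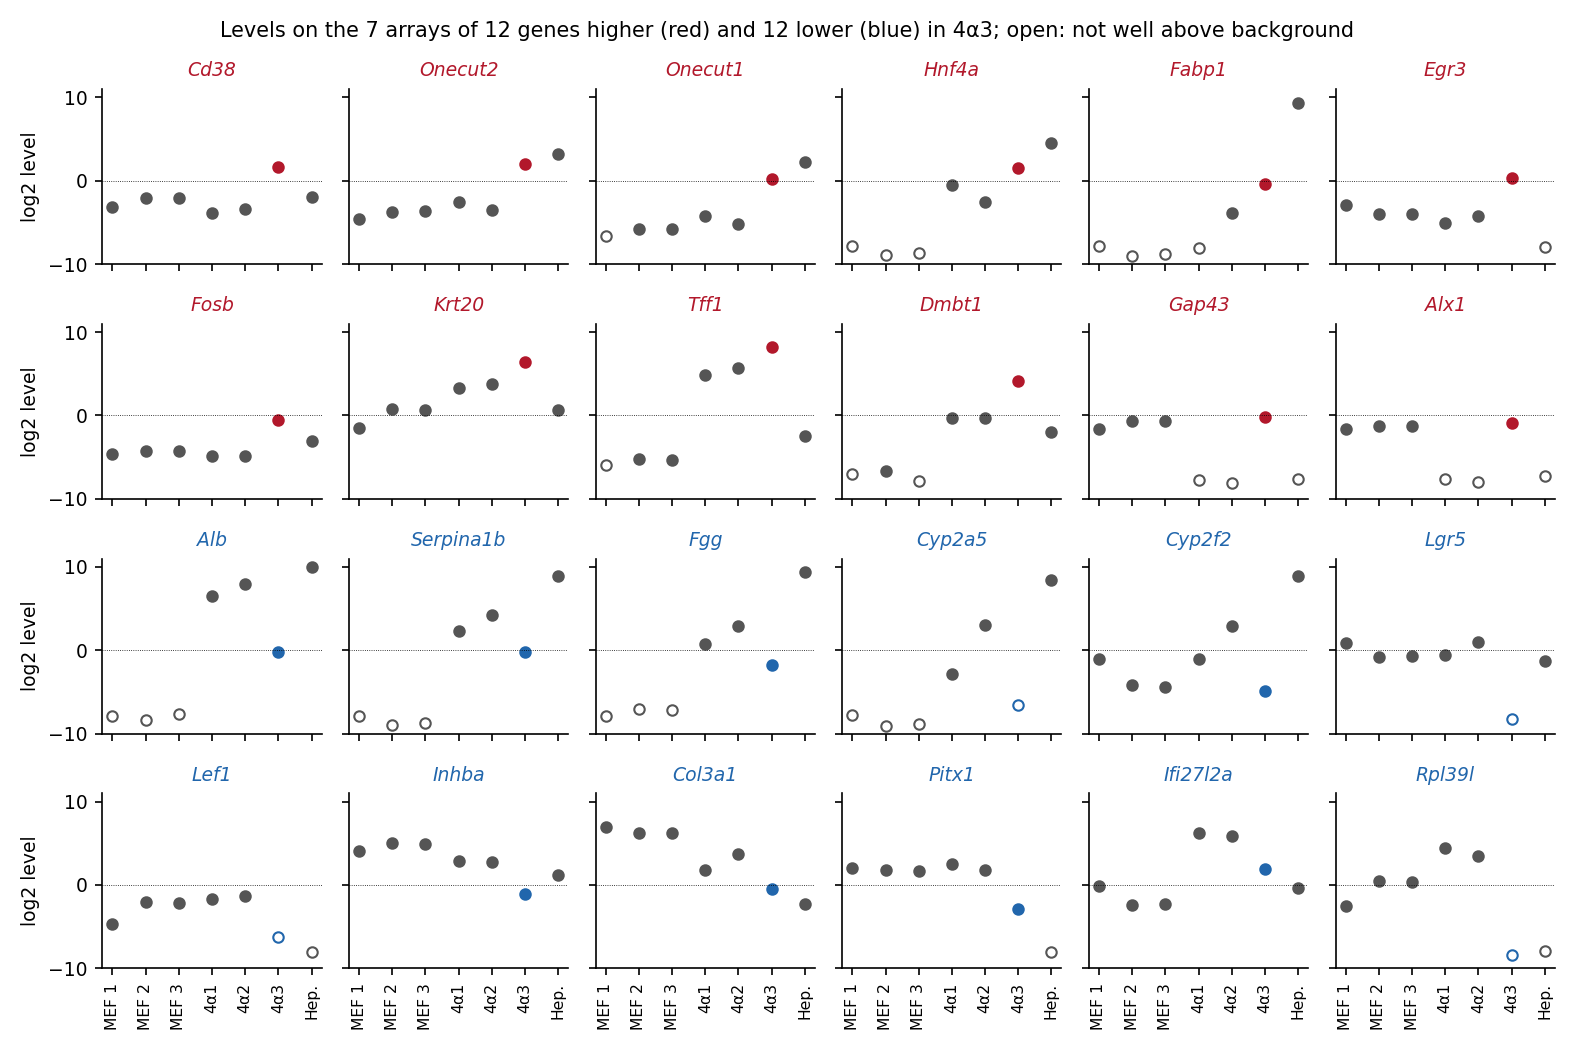
Levels (log2 signal above or below the 75th percentile of the array, y axis) on the 7 arrays (x axis, Hep. is the hepatocyte array) of 12 genes higher and 12 lower in 4α3. Filled points were well above background and open points were not. Alb and Fgg lie between MEF and the other iHep types in 4α3, Onecut1 and Onecut2 near hepatocytes, and Rpl39l and Lgr5 at background in 4α3 alone among iHep and MEF arrays.

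The stretch before the start site is shown for 3 of the named higher genes and 3 of the named lower genes. Each has 150 bases up to the last base before the RefSeq start, 5′ to 3′ on the gene's strand, in build GRCm38.p6, and capitals mark the letters TATAAA. The start of TATAAA lies 30 bases before the RefSeq start for Fabp1 and Cyp1a1 and 29 bases before it for Krt20 and Cyp2a5. Higher in 4α3 were Fabp1 (chr6:71199729-71199878, plus strand), Krt20 (chr11:99438154-99438303, minus strand) and Onecut1 (chr9:74861771-74861920, plus strand). Lower were Alb (chr5:90460720-90460869, plus strand), Cyp2a5 (chr7:26835189-26835338, plus strand) and Cyp1a1 (chr9:57697463-57697612, plus strand).
Fabp1: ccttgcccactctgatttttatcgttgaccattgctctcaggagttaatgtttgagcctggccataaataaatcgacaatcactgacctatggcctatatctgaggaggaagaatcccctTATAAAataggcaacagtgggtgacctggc
Krt20: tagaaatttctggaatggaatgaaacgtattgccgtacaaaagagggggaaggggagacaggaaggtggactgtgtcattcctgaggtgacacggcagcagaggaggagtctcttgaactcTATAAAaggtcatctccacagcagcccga
Onecut1: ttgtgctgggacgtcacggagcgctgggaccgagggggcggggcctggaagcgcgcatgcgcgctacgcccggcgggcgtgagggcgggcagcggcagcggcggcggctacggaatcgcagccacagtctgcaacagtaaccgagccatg
Alb: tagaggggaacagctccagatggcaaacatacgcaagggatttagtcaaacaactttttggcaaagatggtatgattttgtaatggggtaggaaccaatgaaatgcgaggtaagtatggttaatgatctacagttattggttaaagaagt
Cyp2a5: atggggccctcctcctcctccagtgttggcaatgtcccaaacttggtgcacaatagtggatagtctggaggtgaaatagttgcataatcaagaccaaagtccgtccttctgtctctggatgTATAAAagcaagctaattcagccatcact
Cyp1a1: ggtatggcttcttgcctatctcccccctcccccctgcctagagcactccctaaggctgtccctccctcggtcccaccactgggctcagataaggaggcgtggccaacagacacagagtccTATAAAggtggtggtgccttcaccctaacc

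RefSeq windows from 250 bases before to 50 after the start were found for 91 of the 156 higher genes and 133 of the 228 lower genes. TATAAA, searched on both strands, was in the windows of 21 higher genes (23.1%) and 23 lower genes (17.3%), beside 15.7% of 27025 genes in the table and 10.6% of the 11336 tested autosomal genes with a window. The letters TGTTTAC, a forkhead core, were in 3.30% and 3.01% of windows against 3.30% of tested genes. The letters TGNACTTTG, one repeat of the HNF4A site, were in 3 windows of each direction (3.30% and 2.26%) against 1.47%. The HNF1 motif was in 0 windows of either direction and in 3 of all 27025. A match is a description of letters in these windows and no site was measured.

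Epithelial and gut genes had members apart in both directions. Of 55 genes of epithelial junctions and keratins, 3 were higher and 3 lower in 4α3, beside 0.899% and 1.31% of all tested genes. At any size 24 lay above both other types (43.6%) and 20 below (36.4%), beside 39.5% and 40.8% of all tested genes. Krt20, a keratin of differentiated gut and bladder epithelium, had levels of 3.33 in 4α1, 3.75 in 4α2 and 6.45 in 4α3 against 0.62 in hepatocytes, and was 8.70-fold and 6.49-fold higher. Elf3, an epithelial ETS factor, was 4.70-fold and 4.23-fold higher, and Marveld2, the protein of tricellular junctions, 4.98-fold and at least 19.3-fold higher. Krt7, a keratin of duct epithelium, was lower, with levels of 5.21, 5.62 and 3.09. The desmosomal plakophilin Pkp3 was 5.28-fold and 8.14-fold lower. With normexp Marveld2 and Pkp3 (-1.89) were among those inside 4-fold, and 2 higher and 1 lower gene of the list stayed past it. Other epithelial genes were not apart from both types. Cdh1, E-cadherin, was at 4.63, 4.59 and 5.20, Krt8 at 7.54, 7.48 and 8.31, Krt18 at 6.40, 6.47 and 7.66, and Epcam at -0.10, 1.68 and 1.97, which is 4.18-fold above 4α1 but only 1.22-fold above 4α2.

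Among intestinal genes 2 of 38 tested were higher in 4α3 and 4 lower, beside 0.899% and 1.31% of all tested genes. At any size 13 lay above both other types (34.2%) and 12 below (31.6%), beside 39.5% and 40.8% of all tested genes. Gucy2c, the enterocyte receptor for guanylin, was 9.91-fold and 6.64-fold higher, and Spink4, a goblet cell product, 6.07-fold and 28.4-fold higher. Lgr5, the receptor that marks intestinal stem cells and also binds R-spondin in liver, had levels of -0.58 in 4α1 and 0.95 in 4α2, 0.81, -0.77 and -0.66 on the MEF arrays and -1.29 in hepatocytes. It was not well above background in 4α3 and was lower there at least 47.7-fold and at least 138-fold. The chloride channel gene Cftr was likewise at background in 4α3 and lower at least 15.9-fold and at least 8.07-fold, but was inside 4-fold with normexp. Cdx2, the intestinal homeobox factor, was at 3.24, 2.31 and 3.59, so it did not separate 4α3 from the others. Vil1, another intestinal marker, was at 3.84, 4.85 and 6.27 against -0.56 in hepatocytes. It was highest in 4α3 but did not meet the rule. Of 19 stomach and pancreas genes tested 2 were higher and 0 lower, beside 0.899% and 1.31% of all tested genes. At any size 12 lay above both other types (63.2%) and 4 below (21.1%), with median differences of 0.215 from 4α1 and 0.465 from 4α2. Tff1, a trefoil peptide of the stomach lining, had levels of 4.88, 5.64 and 8.17 against -2.45 in hepatocytes, and was 9.78-fold and 5.76-fold higher in 4α3. Pax6, a factor of eye and endocrine pancreas, was above background in 4α3 alone among the iHep arrays, higher at least 18.8-fold and at least 22.2-fold, and all 3 of its probes gave 4α3 the highest level. Summed over the list on a linear scale, the stomach and pancreas genes came to 420 in 4α3 against 159 in 4α1 and 107 in 4α2. Tff1 alone was 288 of this in 4α3, 29.4 in 4α1 and 49.96 in 4α2. Without Tff1 the sums were 132 in 4α3, 129.5 in 4α1 and 56.8 in 4α2, so the summed level of the rest was close to that in 4α1. Such a sum is set mostly by the brightest members.

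Matrix genes of fibroblasts were lower in 4α3, mostly by less than 4-fold. Of 59 tested, 47 lay below both other types at any size (79.7%) and 3 above (5.08%), beside 40.8% and 39.5% of all tested genes, with a median difference of -1.28 from 4α1 and -0.84 from 4α2, beside -0.03 and 0.02 over all tested genes. Col3a1, a fibrillar collagen, had levels of 1.75 in 4α1, 3.71 in 4α2 and -0.43 in 4α3 against 6.96, 6.26 and 6.19 on the MEF arrays, and was 4.52-fold and 17.6-fold lower in 4α3. Thbs2, a matricellular thrombospondin, was 7.37-fold and 4.19-fold lower, and Spon2 6.18-fold and 14.7-fold lower. These were the 3 of 59 past 4-fold lower, and 0 were higher, beside 1.31% and 0.899% of all tested genes. Thbs2 was just inside 4-fold with normexp (-1.94). Col1a1 did not meet the rule with 5.20, 5.44 and 4.01, nor did Col1a2 with 5.15, 4.52 and 3.52. Summed on a linear scale the 62 matrix genes on the array came to 1039 in 4α1, 897 in 4α2 and 477 in 4α3, beside 2650 to 2859 in MEFs and 87.4 in hepatocytes. The integrin subunit Itga11, a collagen receptor, was 16.05-fold and 5.66-fold lower, and the laminin chain Lama3 7.07-fold and 10.3-fold lower. They were the 2 lower genes among 44 matrix proteinases, laminins and integrins, and 0 were higher, beside 1.31% and 0.899% of all tested genes. Neither stayed past 4-fold with normexp (-1.33 and -1.10).

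Mesenchymal regulators and surface markers had median differences of -0.75 from 4α1 and -0.60 from 4α2. At any size 35 of 59 lay below both types (59.3%) and 9 above (15.3%), beside 40.8% and 39.5% of all tested genes. Past 4-fold, 1 was higher and 1 lower, near the background of 0.899% and 1.31%. Alx1, a homeobox factor of craniofacial mesenchyme, had levels of -1.63, -1.30 and -1.32 on the MEF arrays and -0.92 in 4α3, and was at background in 4α1, 4α2 and hepatocytes. It was higher in 4α3 at least 31.1-fold and at least 36.8-fold. Gap43, a growth cone protein, had the same pattern, with -1.62, -0.62 and -0.62 in MEFs, -0.22 in 4α3 and background elsewhere, and was higher at least 50.5-fold and at least 59.7-fold. Both genes were thus at about their MEF level in 4α3. Gas1, a growth arrest protein, was 5.02-fold and 7.52-fold lower. Vim, vimentin, was at 5.76, 5.69 and 5.54 in 4α1, 4α2 and 4α3, Twist1 at 1.33, 0.90 and 0.12, and Thy1 at 1.98, -2.65 and -0.79. Among smooth muscle contractile genes 0 of 21 were apart, near the background of 0.899% and 1.31%, and Cnn1, calponin, came nearest at 2.94-fold and 2.93-fold lower. At any size 15 of the 21 lay below both types (71.4%) and 5 above (23.8%), beside 40.8% and 39.5% of all tested genes. Their median difference was -0.49 from 4α1 and -0.92 from 4α2.

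Genes of Wnt, TGF-beta and BMP signalling had 4 of 51 lower in 4α3 and 0 higher, beside 1.31% and 0.899% of all tested genes. At any size 37 of the 51 lay below both other types (72.5%) and 11 above (21.6%), beside 40.8% and 39.5% of all tested genes. Lef1, a DNA-binding partner of beta-catenin, had levels of -1.67 and -1.29 in 4α1 and 4α2, was at background in 4α3, and was lower there at least 22.6-fold and at least 29.3-fold. Axin2, a feedback inhibitor of Wnt signalling, was lower at least 5.80-fold and at least 12.1-fold, and the ligand Wnt11 4.47-fold and 4.49-fold lower. Inhba, the activin A subunit, had levels of 2.84, 2.75 and -1.07 against 4.05, 5.01 and 4.97 in MEFs, and was 15.1-fold and 14.1-fold lower. With normexp Axin2 (-0.92) and Wnt11 (-1.35) were inside 4-fold of the nearer type, and Lef1 and Inhba were not. The median difference of the list was -0.88 and -1.02. Homeobox genes that carry position had 1 of 34 higher and 3 lower, beside 0.899% and 1.31% of all tested genes. At any size 17 of the 34 lay below both other types and 9 above, beside 40.8% and 39.5% of all tested genes. Hoxc9 was 12.1-fold and 7.38-fold lower, Hoxc10 9.38-fold and 14.7-fold lower, and Hoxd10 lower at least 5.05-fold and at least 20.7-fold, while Hoxb13 was higher at least 12.3-fold and at least 14.5-fold. Of these 4 only Hoxc9 stayed past 4-fold with normexp (-2.58), against -1.41 for Hoxc10, -0.79 for Hoxd10 and 1.75 for Hoxb13.

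**Figure D4:**
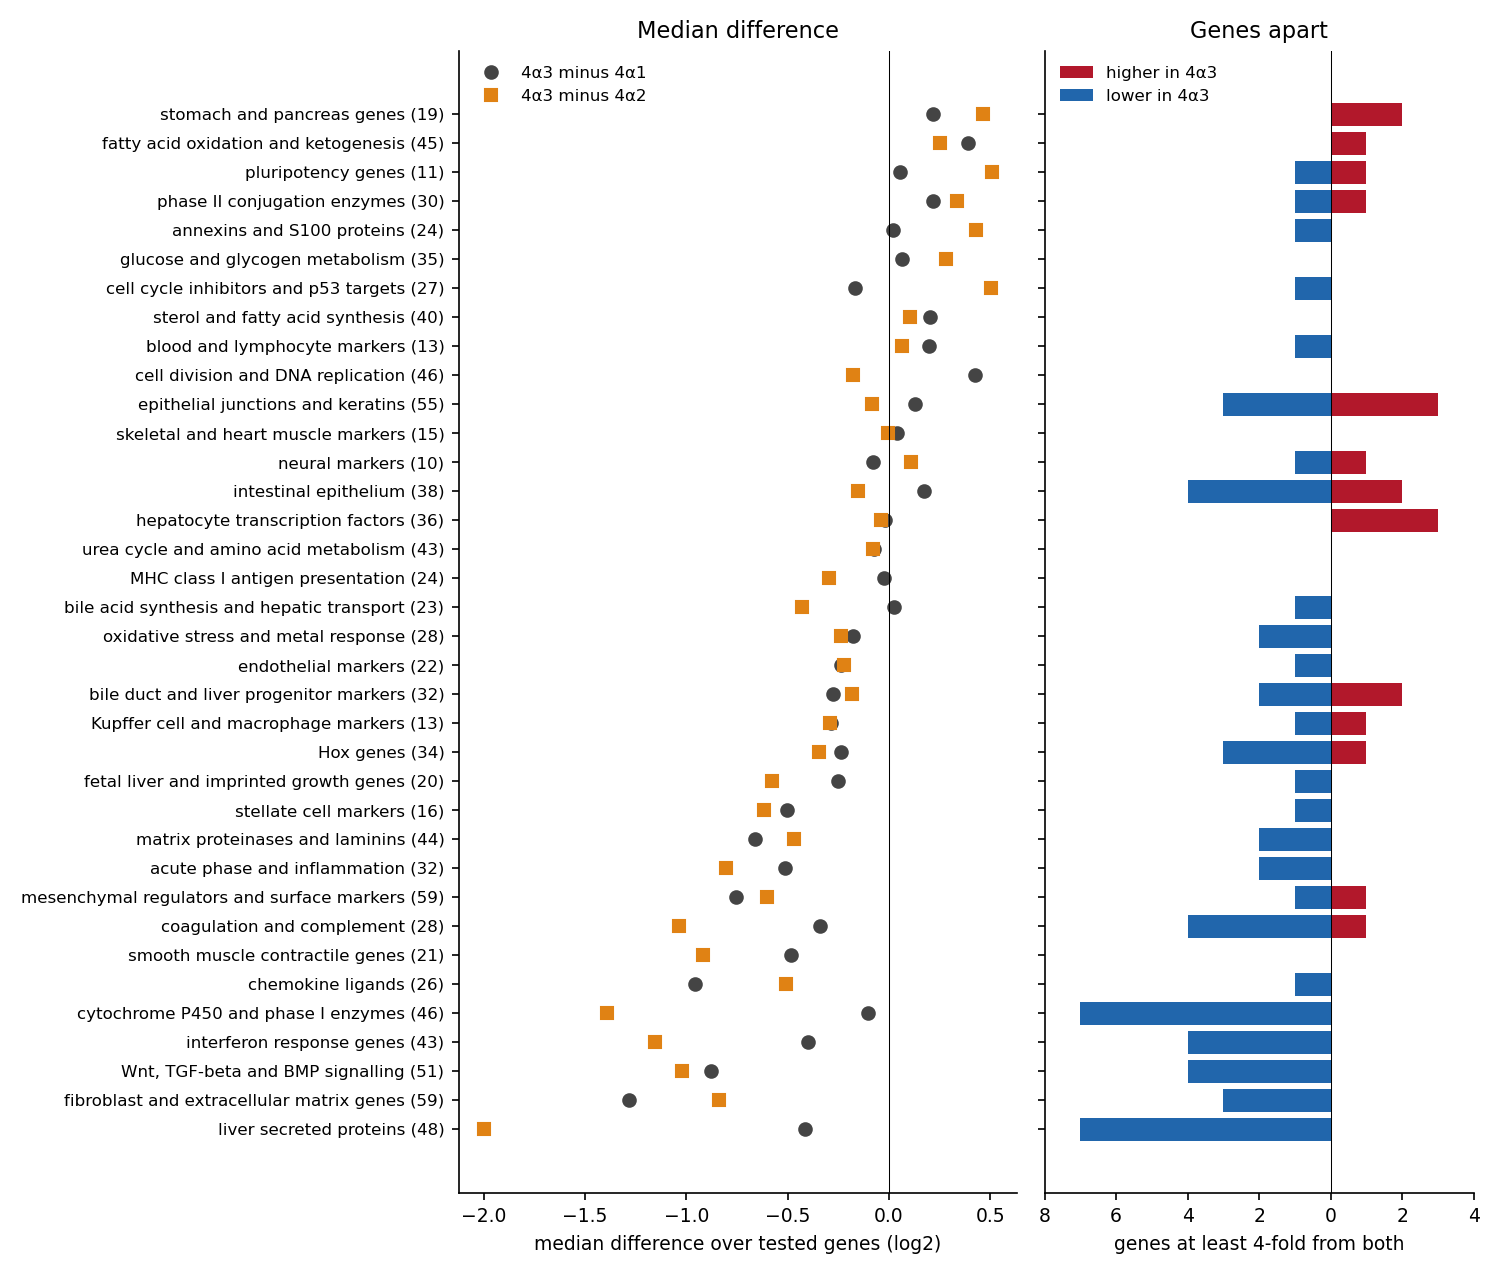
For each of 36 gene lists (number of tested genes in brackets), the left panel gives the median log2 difference of 4α3 from 4α1 (circles) and from 4α2 (squares), and the right panel the number of genes at least 4-fold higher (red) or lower (blue) than in both. The lowest medians are those of matrix genes from 4α1 (-1.28) and of liver secreted proteins from 4α2 (-1.997). The hepatocyte transcription factors have 3 higher genes and 0 lower. Hnf4a is counted among these by its brightest probe, and its probes disagree.

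Interferon response genes had 4 of 43 lower and 0 higher, beside 1.31% and 0.899% of all tested genes. At any size 30 of the 43 lay below both other types (69.8%) and 4 above (9.30%), beside 40.8% and 39.5% of all tested genes. The median difference was -0.40 from 4α1 and -1.16 from 4α2. Ifi27l2a, an interferon-induced mitochondrial protein, had levels of 6.22 in 4α1, 5.89 in 4α2 and 1.90 in 4α3 against -0.18, -2.36 and -2.34 in MEFs. It was 19.9-fold and 15.9-fold lower in 4α3, and its second probe lay apart the same way. The nucleic acid sensor Zbp1 was 5.54-fold and 7.42-fold lower, the chemokine Ccl5 4.59-fold and 9.80-fold, and Ifi44 4.28-fold and 4.09-fold. With normexp Ifi27l2a alone of the 4 stayed past 4-fold, against -1.76 for Zbp1, -1.95 for Ccl5 and -1.78 for Ifi44. Of 24 genes of MHC class I antigen presentation 0 were apart, near the background of 0.899% and 1.31%, with B2m nearest at 2.87-fold and 3.01-fold lower. Among 32 acute phase and inflammatory genes 2 were lower and 0 higher, beside 1.31% and 0.899% of all tested genes. At any size 20 lay below both other types (62.5%) and 5 above (15.6%), beside 40.8% and 39.5% of all tested genes. Saa1, serum amyloid A, was 4.60-fold and 7.34-fold lower, a value it may share with its close copies, and the alarmin Il33 5.39-fold and 6.76-fold lower. Of 28 genes of oxidative stress 2 were lower, Hmox1, heme oxygenase, at 5.16-fold and 4.09-fold and the glutathione peroxidase Gpx3 at 8.54-fold and 5.80-fold.

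Of 46 genes of cell division and DNA replication 0 were apart, near the background of 0.899% and 1.31%. Their median difference was 0.42 from 4α1 and -0.18 from 4α2. At any size 12 lay above both types (26.1%) and 3 below (6.52%), beside 39.5% and 40.8% of all tested genes. Nearest to the rule was Bub1b, a spindle checkpoint kinase, at 2.14-fold and 1.53-fold higher. Mki67 was at 2.44, 3.19 and 3.11. Cdkn1c, the imprinted cell cycle inhibitor p57, was lower, with levels of 1.62, 2.78 and -0.39. Its 4.02-fold difference from 4α1 was at the edge of the rule, and with normexp it did not meet the rule (-1.86). Among 11 pluripotency genes tested, 1 was higher and 1 lower, beside 0.899% and 1.31% of all tested genes. Dppa5a was 5.17-fold and 5.85-fold higher and Mycn lower at least 5.06-fold and at least 6.14-fold, or -0.73 on the log2 scale with normexp.

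The largest differences among genes measured on all 3 iHep arrays lay mostly outside the lists. Teddm3, a gene of the transmembrane epididymal protein family, had levels of -3.32, -1.74 and 3.43 in 4α1, 4α2 and 4α3 and was at background in MEFs and hepatocytes. It was 108-fold and 36.1-fold higher in 4α3. Noxa1, an activator of the NADPH oxidase of epithelia, was 37.6-fold and 35.1-fold higher. Cd38, the NAD-consuming ectoenzyme, had levels of -3.91, -3.43 and 1.63, -3.14, -2.08 and -2.11 on the MEF arrays and -1.99 in hepatocytes, and was 46.7-fold and 33.5-fold higher. In these 3 genes 4α3 was above all 6 other arrays. The mucosal scavenger receptor Dmbt1 (21.4-fold and 20.4-fold), the phosphatase inhibitor Ppp1r1b (20.9-fold and 28.9-fold) and the sorting nexin Snx20 (16.9-fold and 19.7-fold) were also higher. Col22a1 was 20.0-fold and 23.4-fold higher by the probe that stood for it, but its other probe had levels of -3.96, -3.63 and -4.35 and was lowest in 4α3. That other probe was the brighter on every array except 4α3, so the choice of probe rests on the 4α3 value. No direction is therefore stated for Col22a1 as a whole. Egr3 and Fosb, transcription factors of the immediate early response to growth signals, were 41.0-fold and 22.4-fold, and 19.9-fold and 20.3-fold higher. Egr4, of the same family as Egr3, was not well above background in 4α1 and was higher at least 25.6-fold and 17.4-fold.

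Among higher genes with at least 1 other type at background, Tmem45b, a membrane protein, had the largest difference by the smaller fold. It was higher in 4α3 than in 4α1 at least 225-fold and 54.3-fold higher than in 4α2. Ctss, the lysosomal protease cathepsin S that macrophages also express, had levels of 1.66, 2.94 and 2.93 in MEFs, 1.53 in hepatocytes and -0.42 in 4α3. It was higher in 4α3 than in 4α1 and 4α2 at least 43.8-fold and 16.3-fold. The long RNA of the Rosa26 locus, Gt(ROSA)26Sor, was at -3.01, -1.45 and -1.44 in MEFs, -0.73 in hepatocytes and -1.43 in 4α3. It was at background in 4α1 and 4α2, a difference of at least 21.8-fold and at least 25.8-fold. Pbp2 (at least 12.8-fold and at least 15.1-fold) and Hmcn1, hemicentin (at least 15.4-fold and 12.6-fold), also had MEF levels near or above that of 4α3, and both were inside 4-fold with normexp (1.69 and 1.80). The gene 2210407C18Rik was higher at least 47.6-fold and 14.4-fold.

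Rpl39l, a copy of the ribosomal protein gene Rpl39, had the largest difference of all genes lower in 4α3. It had levels of 4.41 in 4α1, 3.53 in 4α2 and -2.51, 0.45 and 0.38 in MEFs, and was at background in 4α3 and in hepatocytes. It was lower in 4α3 at least 1523-fold and at least 828-fold, and its second probe was also at background in 4α3 with 0.33 and -0.80 in 4α1 and 4α2. A2m, alpha-2-macroglobulin, was lower at least 92.1-fold and at least 105-fold, the endothelial anticoagulant receptor Thbd at least 74.3-fold and at least 49.8-fold, and the raft protein Mall at least 52.95-fold and at least 68.6-fold. Thbd was bright in MEFs (2.43, 3.41 and 3.34), whereas A2m was not (-4.34, -4.23 and -4.27). Bst1 (at least 26.3-fold and at least 21.97-fold), Sema3d (at least 25.3-fold and at least 14.2-fold), Chst13 (at least 20.4-fold and at least 19.2-fold) and Fhod3 (at least 17.0-fold and at least 24.8-fold) followed. With normexp Bst1 (-1.96), Sema3d (-1.56) and Fhod3 (-1.69) were inside 4-fold. Bst1 is the neighbour and relative of Cd38, which went the other way.

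Among the lower genes measured on all 3 iHep arrays, Atp12a, a proton pump of epithelia, was next to Alb. Its levels were 2.94, 3.49 and -3.55 in 4α1, 4α2 and 4α3, which is 90.3-fold and 132-fold lower. Pitx1, a homeobox factor of the hindlimb, had 2.04, 1.74 and 1.68 in MEFs, 2.48 and 1.77 in 4α1 and 4α2, and -2.86 in 4α3, which is 40.5-fold and 24.8-fold lower. Penk, the enkephalin precursor, was 24.2-fold and 18.8-fold lower, and varied between MEF 1 (6.97) and MEF 2 and MEF 3 (2.67 and 2.68) by about as much as between the types. Prg4, the lubricin of joint surfaces, was 29.4-fold and 73.0-fold lower, Ism1 33.9-fold and 31.6-fold, Ndnf 26.6-fold and 58.8-fold, Tmem163 29.9-fold and 23.3-fold, and Samd5 20.6-fold and 20.1-fold. Sftpd, a lung collectin, differed more from 4α2 (220-fold) than from 4α1 (18.4-fold). Nxph3 was 18.8-fold and 25.5-fold lower.

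The genes apart were also placed by their levels in MEFs and hepatocytes. For each gene the midpoint between 4α3 and the nearer other type was taken, and a reference counted as on the side of 4α3 when its level lay beyond that midpoint. Of the 156 higher genes, MEFs lay on the side of 4α3 for 19 and hepatocytes for 38, with 6 of these shared, and for 105 genes neither did. Of the 228 lower genes, MEFs lay on the side of 4α3 for 102 and hepatocytes for 140, with 55 shared, and for 41 neither did. Hepatocytes were well above background for 99 of the higher and 145 of the lower genes, and MEFs for 110 and 194. A reference at background has a low level. It therefore tends to fall on the side of 4α3 for lower genes and away from it for higher genes. For this reason the counts of higher and lower genes cannot be compared with each other. Cd38, Teddm3 and Krt20 are among the higher genes that neither reference matched, and Lgr5, Thbd and Axin2 among the lower ones. Alb, Fgg and Cyp2a5 are lower genes with MEFs and not hepatocytes on the side of 4α3, whereas Pitx1, Col3a1 and Hoxc9 have hepatocytes and not MEFs there. Across the 13298 genes measured on all 7 arrays, the level in 4α3 correlated with 4α1 at r = 0.970 and with 4α2 at 0.964, beside 0.985 between 4α1 and 4α2. These are correlations across genes, which are not independent replicates. With MEF 1 the correlation was 0.907 for 4α1, 0.895 for 4α2 and 0.883 for 4α3, and with hepatocytes 0.732, 0.746 and 0.741.

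**Figure D5:**
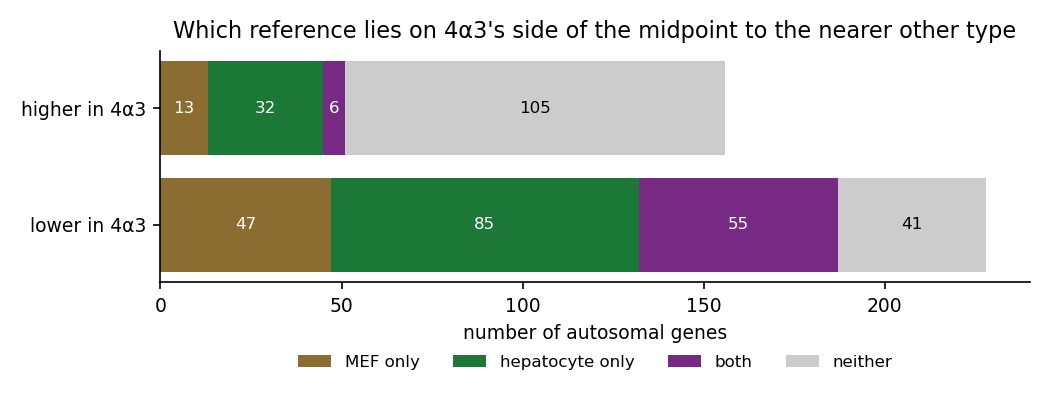
Number of genes (x axis) higher or lower in 4α3 for which MEFs only, hepatocytes only, both or neither lay on the side of 4α3 of the midpoint to the nearer other type. Neither reference did for 105 of 156 higher genes and for 41 of 228 lower genes. A reference at background tends to fall on the side of 4α3 for lower genes and away from it for higher genes. The counts of higher and lower genes therefore cannot be compared with each other.

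The genes apart were on every autosome, at 1.37% of tested genes on chromosome 4 to 3.79% on chromosome 15. Within 500 kb of each other on the array's own map (build mm8) lay 32 of the higher genes in 15 groups and 50 of the lower genes in 22 groups, and some neighbours may be the same gene under different names. The largest group was on chromosome 12 at 103843234 to 104398050, where 5 of 9 tested genes were lower, Ifi27l2a, Serpina1b, Serpina1d, Serpina1e and Serpina9. On chromosome 7 at 25625797 to 25919407 Cyp2b10, Cyp2b13 and Cyp2b9 were lower among 6 tested genes, and Cyp2a5 and Cyp2f2 lay nearby at 26551910 to 26842370. Among higher genes Tff1, Slc37a1 and Pde9a lay together on chromosome 17 at 30888538 to 31201985. These groups were noted after their values were seen. The Alb probe covers 91547772 to 91547831 on chromosome 5, and the Cd38 probe 44199418 to 44199477 on the same chromosome. The brightest Hnf4a probe covers 163263779 to 163263838 on chromosome 2, the Fabp1 probe 71134491 to 71134550 on chromosome 6, and the brighter Rpl39l probe 10088142 to 10088201 on chromosome 16. Exon and intron annotation of build mm8 was not used here.

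Measures of cell make-up moved with 4α3 in part. Xist, the RNA of the inactive X chromosome, was at 3.42 in 4α3, at background in 4α1, 4α2 and hepatocytes, and at 1.26, 1.78 and 1.87 in MEFs. The Y-linked Ddx3y was at -0.81 in 4α1, 0.79 in 4α2 and -2.50 in 4α3, and Eif2s3y at 0.19, 1.55 and -1.97, so all 3 iHep arrays carried Y-linked RNA and 4α3 the least. The part of the sex of the source embryos in the autosomal differences was not tested. Defining markers of macrophages (Adgre1 and C1qc), endothelium (Pecam1 and Cdh5) and blood cells (Ptprc) were at background in all 3 iHep types. Of 28 macrophage markers on the array, 9, 13 and 10 were well above background in 4α1, 4α2 and 4α3, with summed linear levels of 7.59, 18.1 and 16.2, beside 77.7 to 126 in MEFs. Cd14 alone made up 6.09, 14.8 and 14.6 of these sums. Of their 13 tested members Ctss was higher and Lyz2 5.50-fold and 14.005-fold lower in 4α3, Lyz2 being a close copy of Lyz1. The endothelial, stellate, neural, muscle and blood marker lists each had at most 1 gene in either direction. These were S1pr1, a sphingosine receptor (4.96-fold and 4.94-fold lower), Rgs5, a pericyte marker (5.43-fold and 18.5-fold lower), the synaptic Snap25 (lower at least 4.13-fold and at least 5.37-fold), Gap43 above, and the neutrophil protein S100a9 (12.2-fold and 54.1-fold lower). With normexp Gap43 stayed past 4-fold, and Lyz2 (-1.78), S1pr1 (-1.08), Rgs5 (-1.58), Snap25 (-0.57) and S100a9 (-1.87) did not. Among muscle markers 0 of 15 were apart, near the background of 0.899% and 1.31%. Mef2c, which came nearest, was lower at least 2.67-fold and at least 4.05-fold. In a culture, fewer cells of a kind and less RNA per cell cannot be told apart by these values.

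Other probes of the same gene that were well above background on all 3 iHep arrays gave a second reading for part of the genes. Of 24 such probes of higher genes 21 gave 4α3 the highest level among the iHep types and 12 were also past 4-fold. Of 39 such probes of lower genes 38 gave 4α3 the lowest level among the iHep types and 26 were also past 4-fold. Among the genes described above, Hnf4a and Col22a1 were the 2 with a probe above background that went the other way.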

How the data were processed

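The members and the 36 gene lists were chosen with earlier results of these data known. Per the file headers and the submitters' processing notes, Agilent Feature Extraction 9.5.1.1 quantified the arrays, and the deposited processed signal is a background-corrected intensity on a linear scale. The authors also deposited a table of intensity values whose columns share 1 distribution (medians 66.3 to 66.4, r = 0.9988 to 0.9999 with the log2 scanner signals). The sources used here do not say how it was made, and it served as an alternative. The deposited files' flags, a unit other than a measurement, give each spot's status (background, saturation, outlier).

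Of 43379 spots that were not controls, outlier spots were left out and repeats averaged, giving 41138 probes. Levels are log2 signal minus the array's 75th percentile. Probes took symbols from the GRCm38.p6 table by accession (24479) or symbol (8607). The brightest probe stood for a gene. Genes were named by rule: the 12 highest and 12 lowest measured differences, the 10 largest bounds in each direction, a fixed set of markers, and up to 4 members of each list. Some genes that the rule names are not reported here. The fold rule and the limma 3.58.1 fit used as an alternative (R 4.3.3) were tested on simulated data. Arrays give no read depth, and their number limits the precision.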

Additional observations from a re-analysis of the deposited data

How the results depend on the processing

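The counts of 156 higher and 228 lower genes became 159 and 209 after quantile normalization and 157 and 207 in the authors' deposited table, sharing 154 and 200, and 154 and 199, genes with the main lists. With normexp they were 79 and 73, and the pair counts were 140 higher and 150 lower against 4α1 and 133 higher and 235 lower against 4α2. A threshold of 2-fold gave 711 and 942 genes and 8-fold gave 57 and 65. Without a floor 273 genes were higher, and without floor or background filter 274 were higher and 369 lower. Where all 3 iHep arrays had to be above background, 99 were higher. In limma with 2 MEF samples 0 genes passed in either direction, with smallest adjusted p-values of 0.113 against 4α1 and 0.0936 against 4α2, and with MEF 2 and MEF 3 counted apart 31 and 44 passed. Leaving out each MEF array gave 19 to 23 higher and 102 to 109 lower genes with MEFs on the side of 4α3. Another probe reversed Hnf4a (-1.85) and Col22a1 (-0.72), and the cause was not tested. Among 98 named genes normexp left 64 past 4-fold, and among 32 other probes of them 18 were past it. Signal over background limits 57 calls in each direction. No paired analysis was possible because each iHep type has 1 array and the types share fewer than 2 replicate numbers.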

Other observations

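Immediate early genes, transcribed within minutes of a stimulus, stood higher in 4α3. Their list was written after values had been seen, so its counts are a description. Of 42 tested, 10 were at least 4-fold above both other types and 0 below, beside 0.899% and 1.31% of all tested genes. The 10 were Fos, Fosb, Egr1, Egr2, Egr3, Egr4, Arc, Nr4a1, Atf3 and Plk3. At any size 36 lay above both (85.7%) and 4 below (9.52%), beside 39.5% and 40.8% of all tested genes. The median differences were 0.95 and 0.87. Egr1 had levels of 2.92, 2.90 and 2.97 in MEFs, 1.66 in 4α1, 2.04 in 4α2, 5.34 in 4α3 and 4.69 in hepatocytes. Fos had levels of -0.78, -0.40 and 2.33 in the 3 types, against 2.15 in hepatocytes. Atf3, a stress-induced factor, was 17.4-fold and 8.20-fold higher in 4α3. Npas4 was lower, with -4.58, -3.77 and -6.18.

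Some direct targets of Wnt signalling stood lower, again in a list written after values had been seen. It shares Axin2, Lgr5 and Lef1 with lists above. Of 21 tested, 6 were at least 4-fold below both other types and 0 above, beside 1.31% and 0.899% of all tested genes, and 2 of the 6 stayed so with normexp. At any size 13 lay below both (61.9%) and 3 above (14.3%), beside 40.8% and 39.5% of all tested genes. Among the 15 measured on all 3 iHep arrays 7 lay below both (46.7%) and 3 above (20.0%). Of all genes so measured 39.1% lay below both and 40.6% above. The members above both were Myc, Tbx3 and Glul, while Ccnd1 and Cd44 lay between the other types. Besides Axin2, Lgr5 and Lef1, the members apart were Sp5, Apcdd1 (7.29-fold and 4.07-fold lower) and Rnf43 (4.66-fold and 4.47-fold lower). Rnf43 is a ubiquitin ligase that removes Wnt receptors.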
